A study of Mus musculus with 61 samples.

Results

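The genes described here are 8 genes that mark or build mouse primordial germ cells, out of 55052 genes listed in the expression table: Prdm1, Prdm14, Tfap2c, Dppa3, Nanos3, Dnd1, Dazl and Ddx4. They were chosen by name and read in every library. The RNA came from stembryos, which are aggregates of mouse embryonic stem (mES) cells that elongate into trunk-like structures after a pulse of the Wnt agonist Chiron given between 48 and 72 h. The study asked how CTCF-binding sites (CBS) at the HoxD gene cluster pace the activation of Hox genes, and poly-A RNA was sequenced in 61 libraries of pooled stembryos.

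Wild-type (wt) stembryos gave a time course of 2 libraries at each of 72, 84, 96, 108, 120, 132, 144 and 168 h, and, apart from it, 10 control libraries, of which 4 were of 96 h, another 4 of 120 h and 2 of 144 h. The 35 mutant libraries came from 8 lines. Del(CBS1), Del(CBS2), Del(CBS1-2) and Del(CBS4) lack the named CTCF sites, Del(d1-d4) lacks the segment from Hoxd1 to Hoxd4, and Ins(2xCBS-d4d8) carries a cassette with 2 added CTCF sites 5′ of CBS1. These 6 were edited homozygous clones of the wt 129/SVEV mES line, and Del(CBS1-2) was made from Del(CBS1). Del(CBS1-5) and Del(sub-TAD1) cells were instead derived from blastocysts of mutant mice kept on a mixed BL6 and CBA background, so for these 2 lines the origin of the cells and the deletion cannot be told apart. Del(sub-TAD1) lacks the sub-TAD next to the cluster, Mtx2 included, and carries an Mtx2 transgene. Each mutant was sampled at 2 stages, 96 and 120 h, with 2 libraries a stage, except Del(CBS4), sampled at 120 and 144 h, Del(CBS1-5), sampled also at 144 h, and Del(sub-TAD1), with 3 libraries at 96 h. Controls and mutants were grown with the same Chiron pulse, and from 108 h on only clearly elongating stembryos were collected.

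Primordial germ cells are set aside from the early epiblast in response to BMP and Wnt signals. Prdm1 (Blimp1), Prdm14 and Tfap2c are the transcription factors that specify them, Dppa3 (Stella), Nanos3 and Dnd1 are early germ cell genes needed for survival or chromatin protection, and the RNA-binding proteins Dazl and Ddx4 (Vasa) are switched on later, when germ cells reach the gonad. The same genes are used elsewhere: Dppa3, Prdm14 and Tfap2c are expressed in naive mES cells, Tfap2c also in trophoblast and surface ectoderm, and Prdm1 also in endoderm and other lineages. In bulk RNA a lower value can mean fewer cells of a type or less RNA per cell, and these cannot be told apart.

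Values are FPKM (fragments normalised to transcript length and library size), the unit in which the study deposited them. Libraries held between 15.0 and 38.9 M fragments (median 23.9 M), as recovered from the deposited values. Differences were tested with limma on log2(FPKM + 0.1) in 1 model of all 61 libraries, and a gene was said to rise or fall when its p, adjusted by Benjamini-Hochberg over 17098 genes, was under 0.05. On this scale the change of a gene at low level is understated. Libraries fell into 2 sets by their summed FPKM of ribosomal-protein pseudogenes, at most 2158 in 33 libraries and at least 21586 in 28. Low sums belonged to every wt library of the time course and of 144 h, to the controls numbered 4, to both stages of Ins(2xCBS-d4d8) and of Del(CBS4), and to the 96 h libraries of Del(sub-TAD1) and the 144 h libraries of Del(CBS1-5). Where mutants with low sums met mostly controls with high ones, 26.9% to 40.0% of all genes rose or fell. In the other mutant comparisons of 96 and 120 h, 0.193% to 14.8% did. The part of the sets in these shares was not tested. The removed genes Hoxd1, Hoxd3 and Hoxd4 were listed at 0 in the Del(d1-d4) libraries at both stages, against 4.59 to 35.4 FPKM in the wt controls of 96 and 120 h. Gene values cannot check the deletions of CTCF sites. Mtx2 stood at 19.2 to 25.3 FPKM in Del(sub-TAD1) libraries and 21.9 to 26.9 in the wt controls of 96 and 120 h.

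The 8 genes were at low level in most libraries. Tfap2c and Prdm1 had more than 3 fragments in all 61 libraries, Ddx4 in 57, Nanos3 in 48, Prdm14 in 42, Dppa3 in 32 and Dazl in 12. Dppa3 was the sole one to pass 10 FPKM, which it did in 8 libraries, and its highest value, 36.4 FPKM, rested on about 403 fragments. The highest value of Dazl, 1.43 FPKM, rested on about 22.8 fragments. Prdm14 and Dazl reached a mean of 1 FPKM only in Del(CBS1-5) at 96 and 144 h, so they entered the test through the groups in which they were high.

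Dnd1, whose protein binds the 3′ ends of germ cell mRNAs and works with Nanos proteins, was listed at 0 in 57 of 61 libraries. It was listed at 6.66 FPKM in replicate 1 of the time course at 72 h, at 5.61 in replicate 1 at 84 h, at 3.45 in replicate 2 of Del(CBS1-5) at 120 h and at 4.85 in replicate 2 of Del(CBS1-5) at 144 h. In each case the other replicate stood at 0. Its annotated transcripts overlap 140 bases of Wdr55 on the opposite strand, itself at 26.5 to 56.2 FPKM, and a listed 0 may be a failed estimate although no value carried a failed status. Dnd1 is therefore left out of every count that follows, and 7 genes remain.

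In the wild-type time course, Tfap2c and Prdm14 were highest at 84 h and Ddx4 at 72 h, whereas Dppa3, Nanos3 and Dazl stayed low. Tfap2c, an AP-2 family transcription factor, stood at 1.84 and 1.79 FPKM in the 2 libraries at 72 h, 4.58 and 5.43 at 84 h, and 1.05 and 1.17 at 96 h. It rose by 1.41 ± 0.48 (log2, SE; adjusted p = 0.0389, limma) from 72 to 84 h and fell by 2.07 ± 0.48 (adjusted p = 0.00146, limma) from 84 to 96 h. It was lowest at 108 h, at 0.627 and 0.618, and stood at 2.54 and 2.44 at 144 h. No later interval passed the test for it. Prdm14, which holds back epiblast differentiation in germ cells, followed the same early course at a lower level. It was at 0.294 and 0.141 FPKM at 72 h and at 0.912 and 0.971 at 84 h, a rise of 1.76 ± 0.53 (adjusted p = 0.0183, limma). From 84 to 96 h its difference was -1.38 ± 0.53 (adjusted p = 0.0623, limma), and it stood at 0.036 and 0.0374 at 108 h.

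Prdm1, a repressor of somatic genes in germ cell precursors, had a different course. It was at 0.399 and 0.272 FPKM at 72 h and at 0.741 and 0.707 at 84 h, and then its replicates diverged, at 0.347 and 2.14 at 96 h and at 2.73 and 0.523 at 120 h. Between these stages, at 108 h, both libraries were low, at 0.293 and 0.201. The 2 libraries were close again at 132 h (1.48 and 1.42), 144 h (2.15 and 2.29) and 168 h (1.57 and 1.32). From 108 to 120 h it rose by 1.95 ± 0.53 (adjusted p = 0.0178, limma). Endoderm markers diverged between the same libraries: the summed FPKM of 8 endoderm genes was 182 to 738 at 96 h and 60.1 to 233 at 120 h, but 135 to 147 at 108 h. Other lists diverged there too. Surface ectoderm and neural crest genes summed to 12.5 to 52.6 at 96 h and 5.14 to 42.6 at 120 h. Trophoblast genes summed to 0.929 to 6.14 at 96 h, and endothelial genes to 3.73 to 31.6 at 120 h. The part of these cell types in the Prdm1 values was not tested.

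Dppa3, which guards the maternal genome against demethylation, stayed between 0.144 and 0.818 FPKM in all 16 libraries of the time course, and the highest stage mean was 0.617 ± 0.175 (SD, n = 2) at 120 h. No interval passed the test. Nanos3, a translational repressor that keeps migrating germ cells alive, ranged from 0.108 to 1.06, with its highest mean of 0.866 ± 0.28 also at 120 h, and did not pass either. Dazl was highest at 72 h, at 0.3 and 0.26, and at 0.0159 to 0.196 afterwards. Ddx4 fell in both of the first intervals. Its libraries stood at 3.25 and 4.16 at 72 h, 1.09 and 1.26 at 84 h, and 0.254 and 0.293 at 96 h. It fell by 1.57 ± 0.53 (adjusted p = 0.0346, limma) and then by 1.77 ± 0.53 (adjusted p = 0.0131, limma). From 108 h on it stayed between 0.0842 and 0.325.

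**Figure D1:**
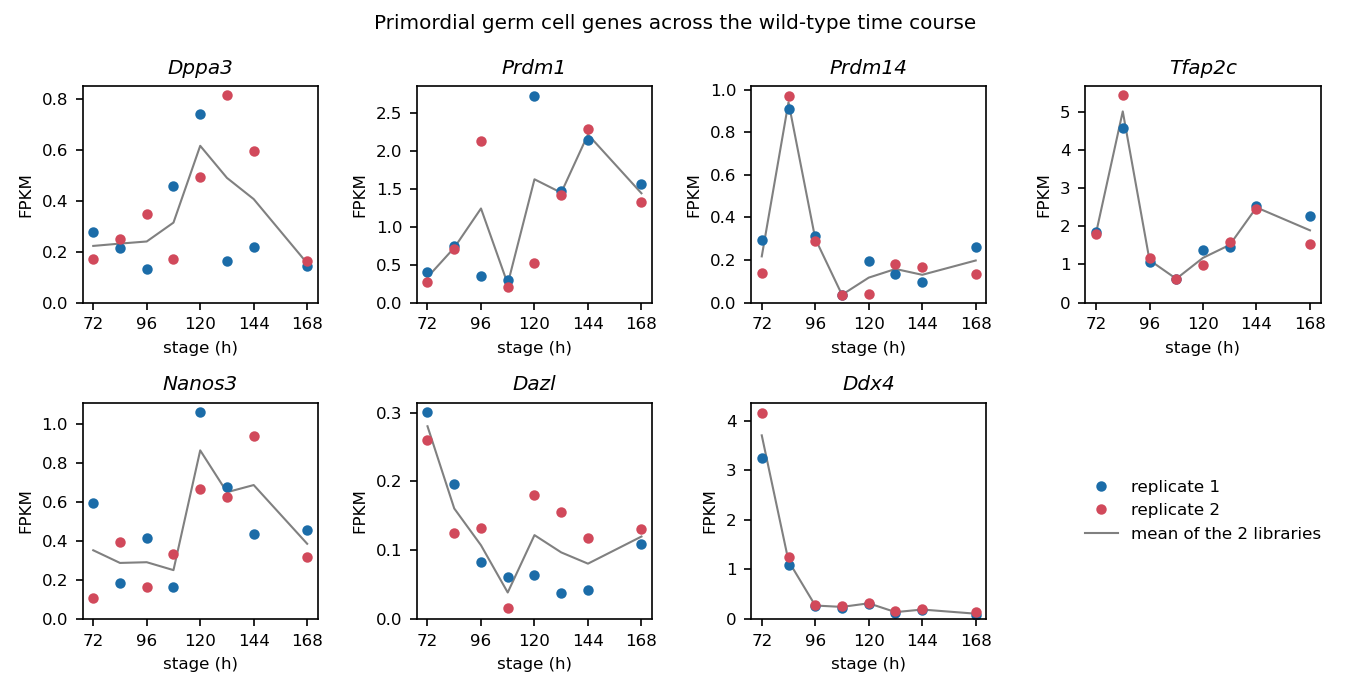
FPKM (linear axis) of 7 primordial germ cell genes by stage in the wild-type time course. Each point is a library, coloured by replicate, and the line joins the means of 2 libraries. Tfap2c and Prdm14 peaked at 84 h, Ddx4 decreased from 72 h, and Prdm1 differed between replicates at 96 and 120 h.

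Over the 7 intervals, 3 rises and 3 falls were called among 49 gene-by-interval tests. Of all genes tested, 16.3% were called from 72 to 84 h (2 of the 7 rose, 1 fell), 20.7% from 84 to 96 h (2 fell), and 7.06% from 108 to 120 h (1 rose). None was called from 96 to 108 h (9.45% of all genes), 120 to 132 h (2.46%), 132 to 144 h (5.42%) or 144 to 168 h (9.87%). Without replicate 1 or replicate 2, which leaves 1 library a stage whose spread is taken from the other conditions, the 5 calls up to 96 h were lost, and that of Prdm1 was lost without replicate 1 (adjusted p = 0.5675, limma). The 3 calls from 72 to 84 h were also lost with a pseudocount of 0.01 FPKM. With no filter on low values, those of Tfap2c and Ddx4 from 72 to 84 h were lost. In a fit of the time course libraries alone, that of Prdm1 was lost.

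The genes around them in the pathway moved as follows at the stage of the Tfap2c peak. From 72 to 84 h, when 10.4% of all genes rose and 5.97% fell, 5 of 9 tested surface and early germ cell markers rose and none fell, with Ifitm1 going from 111 to 547 FPKM (log2 difference 2.30 ± 0.14) and the chemokine receptor gene Cxcr4 from 4.77 to 13.3 (2.04 ± 0.39). Of 13 tested genes for induction and its context, 1 rose and 4 fell, led by Eomes (50.2 to 2.25 FPKM) and Otx2 (16.9 to 1.7), the latter known as a barrier to germ cell fate. Of 12 pluripotency genes that germ cells keep, 1 rose (Sox2, 7.06 to 25.9) and 1 fell (Nanog, 74.2 to 13.0). Their summed FPKM went from 1344 to 1352 at 72 h to 648 to 693 at 84 h and 100.2 to 108 at 96 h, with Pou5f1 falling from 542 to 49.0 in the last step. Of 7 tested genes for repressors of germline genes, 4 fell from 72 to 84 h, led by Rif1 (40.7 to 24.5) and Setdb1 (39.9 to 31.0). At 84 h, T (Brachyury), a mesoderm gene also needed for germ cell induction, stood at 405 FPKM and fell to 88.7 at 96 h.

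Ddx4 and Dazl are given with the DNA around their starts, as the late germ cell genes of the group. They moved together over the conditions (Pearson r = 0.875), but Dppa3 with Dazl (0.926) and Prdm14 with Tfap2c (0.924) ran closer. The sequences run from 250 bases before to 50 bases after the RefSeq start (GRCm38.p6, the build called mm10). RefSeq promoters of Ddx4, Dazl, Prdm1 and Nanos3 were matched, and none of Dppa3, Tfap2c or Prdm14 was available, which limited the choice. CG pairs are in capitals, and Nanos3 is shown for contrast.

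The 3 promoters, each read 5′ to 3′ on the minus strand, on which all 3 genes lie, are at chr13:112652261-112652560 (Ddx4), chr17:50293571-50293870 (Dazl) and chr8:84176503-84176802 (Nanos3).
Ddx4: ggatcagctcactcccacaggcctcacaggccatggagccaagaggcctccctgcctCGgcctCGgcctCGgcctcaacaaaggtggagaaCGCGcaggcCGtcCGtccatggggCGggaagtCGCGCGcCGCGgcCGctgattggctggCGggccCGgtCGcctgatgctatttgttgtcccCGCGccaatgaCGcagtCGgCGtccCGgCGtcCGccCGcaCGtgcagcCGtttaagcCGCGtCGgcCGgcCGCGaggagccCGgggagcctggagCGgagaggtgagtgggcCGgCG
Dazl: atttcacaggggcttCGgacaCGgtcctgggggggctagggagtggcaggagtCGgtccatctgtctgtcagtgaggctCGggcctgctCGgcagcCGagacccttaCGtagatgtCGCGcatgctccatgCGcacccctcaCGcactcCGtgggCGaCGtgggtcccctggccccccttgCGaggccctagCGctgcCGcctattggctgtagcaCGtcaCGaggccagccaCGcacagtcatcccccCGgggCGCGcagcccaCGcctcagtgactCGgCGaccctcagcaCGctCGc
Nanos3: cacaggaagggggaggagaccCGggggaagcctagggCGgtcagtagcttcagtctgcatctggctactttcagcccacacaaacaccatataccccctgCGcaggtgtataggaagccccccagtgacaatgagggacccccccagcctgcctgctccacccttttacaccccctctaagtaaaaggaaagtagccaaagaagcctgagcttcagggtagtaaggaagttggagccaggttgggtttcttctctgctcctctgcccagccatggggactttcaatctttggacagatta

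The Ddx4 promoter held 38 CG pairs and the Dazl promoter 28, more than 95.0% and 85.8% of 32851 RefSeq promoters of this length, whose median was 7. The Prdm1 promoter held 20 and that of Nanos3 held 3. The GC content was 72.0% for Ddx4, 68.7% for Dazl, 59.7% for Prdm1 and 55.3% for Nanos3, against a median of 52.7%. Motifs were searched on both strands. The E-box CACGTG, found in 7.15% of all these promoters, occurred once in that of Ddx4, 29 bases before the start, and not in the other 3. The letters GGCGGGA, a core bound by E2F factors and found in 11.3%, occurred once in Ddx4 as well, and the octamer ATGCAAAT, found in 1.74%, in none of the 4. These are matches of letters in this window.

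In the wt control libraries, Dppa3 differed far more between replicates than between stages. At 96 h it stood at 0.12, 0, 8.35 and 1.31 FPKM in replicates 1 to 4, and at 120 h at 0.4664, 0.0609, 7.46 and 2.83. The control numbered 3 was the highest at both stages for Dppa3, Tfap2c, Prdm14, Dazl, Ddx4 and Nanos3. Tfap2c was at 0.634, 0.579, 2.06 and 1.18 at 96 h and at 0.643, 0.853, 3.22 and 1.29 at 120 h, and Ddx4 at 0.0992, 0.22, 1.42 and 0.725 and at 0.307, 0.253, 1.19 and 0.777. The summed FPKM of the 12 pluripotency genes was 377 in both controls numbered 3, and 58.9 to 79.4 at 96 h and 59.9 to 100.2 at 120 h in the others. Their part in the germ cell gene values was not tested.

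From 96 to 120 h, 1 of the 7 genes was called among these controls, where 27.1% of all genes were. Prdm1 stood at 0.387, 0.135, 0.326 and 0.245 FPKM at 96 h and at 0.349, 0.285, 0.954 and 1.29 at 120 h, a difference of 0.98 ± 0.37 (adjusted p = 0.0475, limma), and the groups overlapped. The exact permutation test over the libraries gave p = 0.143 (two-sided, n = 4 against 4, smallest possible p 0.0286). Same-numbered controls deviated together, and with the number as a block in a fit of these 8 libraries the difference was not called (adjusted p = 0.169, limma). For the other 6 genes exact permutation p-values were 0.457 to 0.8. The permutation took the 8 libraries as unpaired, so the spread between same-numbered controls could hide a change that they share. The call of Prdm1 was also lost without wt 96 h replicate 2, 3 or 4 and without wt 120 h replicate 3 or 4.

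Against the wt controls of their stage, the germ cell genes were high in Del(CBS1-5) stembryos at every stage sampled and in Del(sub-TAD1) stembryos at 96 h. Over 17 mutant conditions 17 rises and 5 falls were called in 113 gene-by-condition tests, which leave out Prdm14 and Dazl in Del(CBS1-5), the line through which they entered the test. The rises belonged to those 4 conditions, and the falls to Del(CBS4), Del(CBS1) and Del(d1-d4) at 120 h. Of all genes, 8.45%, 6.42% and 15.5% rose in Del(CBS1-5) at 96, 120 and 144 h, and 21.8% in Del(sub-TAD1) at 96 h. In the 3 conditions with falls, in the order named, 22.2%, 0.807% and 1.53% of all genes fell. Within the rises the mutant libraries lay above every control library in 11 of 17 cases. How often other genes that rose did so was not counted, so this share carries no weight by itself.

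**Figure D2:**
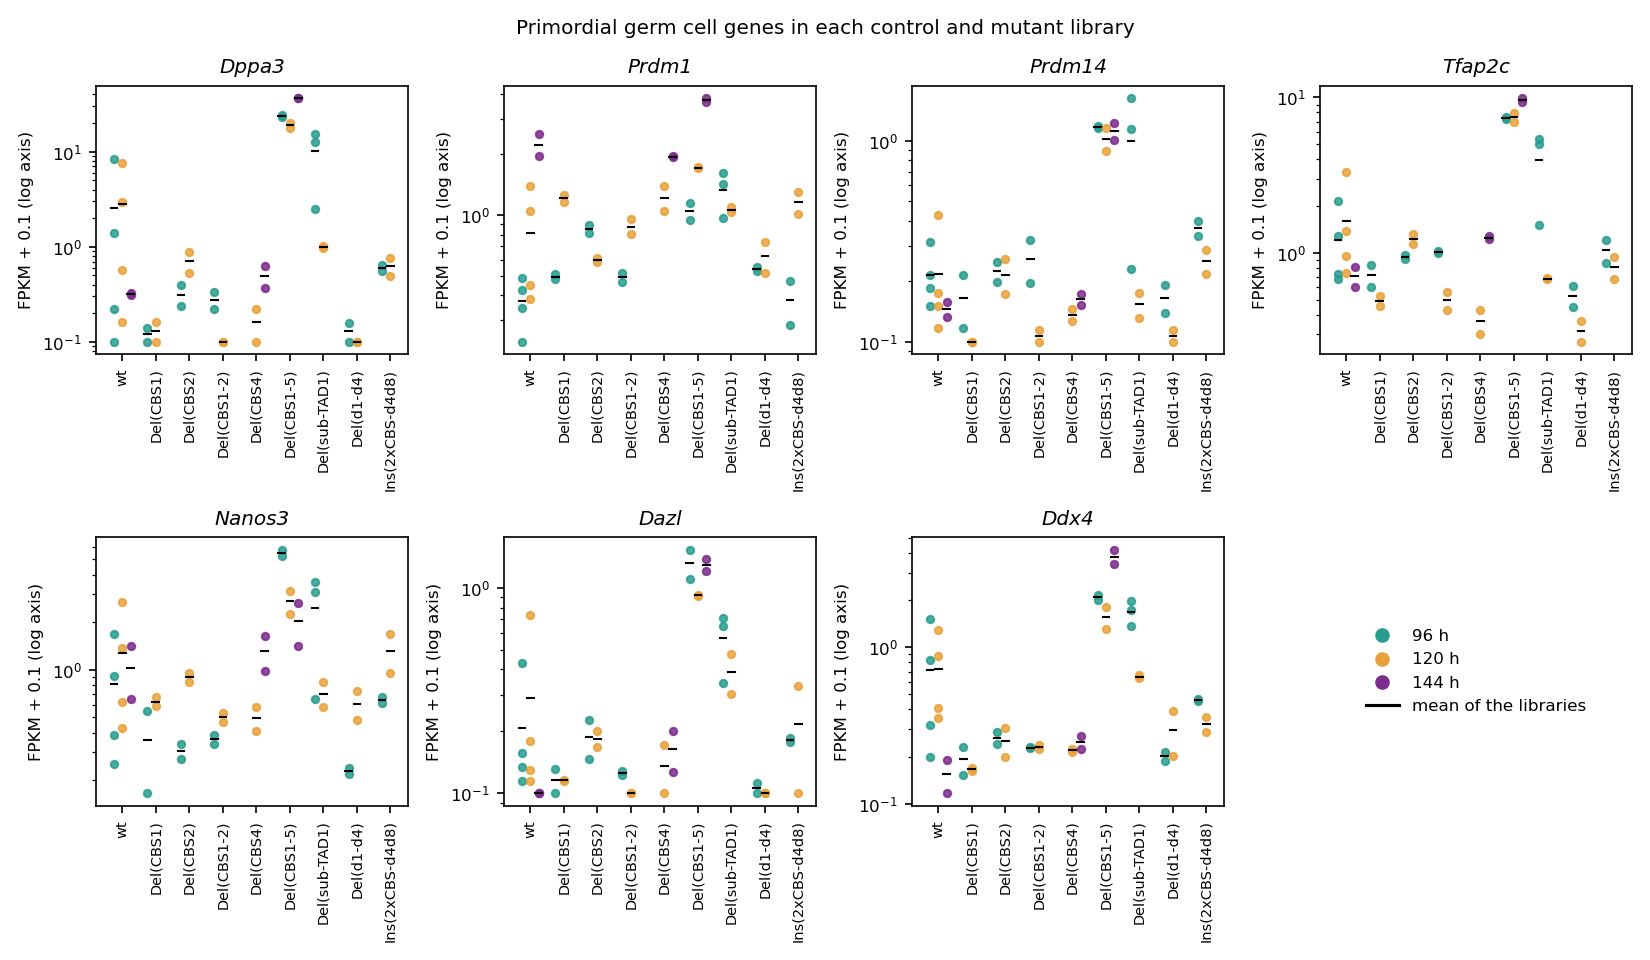
FPKM + 0.1 (log axis) of 7 primordial germ cell genes in each control and mutant library outside the time course, by line, with colours for 96, 120 and 144 h and bars for the means. Del(CBS1-5) libraries stood at 17.5 to 36.4 FPKM for Dppa3, above the highest control (8.35).

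Dppa3 gave the largest difference in Del(CBS1-5). Its libraries stood at 22.9 and 24.0 FPKM at 96 h, 17.5 and 20.2 at 120 h, and 36.2 and 36.4 at 144 h. The wt controls reached 8.35 at 96 h and 7.46 at 120 h and stood at 0.224 and 0.208 at 144 h. The log2 differences were 5.04 ± 1.08 (adjusted p = 0.00137), 3.99 ± 1.08 (adjusted p = 0.0124) and 6.85 ± 1.25 (adjusted p = 6.863e-05, limma in each case). Mutant and control libraries did not overlap at any of the 3 stages.

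Of the specification factors, Tfap2c rose at every stage and Prdm1 at 96 h. Tfap2c was at 7.11 and 7.33 FPKM at 96 h, 6.85 and 7.85 at 120 h, and 9.79 and 9.19 at 144 h, with log2 differences of 2.76 ± 0.42, 2.46 ± 0.42 and 3.77 ± 0.48 (adjusted p = 2.238e-05, 1.629e-04 and 1.969e-07, limma). These values also exceeded the 84 h peak of the time course. At 144 h the controls stood at 0.715 and 0.504, below the time course libraries of that stage (2.54 and 2.44), which the difference does not use. Prdm14 stood near 1 FPKM at each stage, at 1.06 and 1.09, 1.06 and 0.79, and 1.12 and 0.912, against at most 0.326 in a wt control. Since it passed the filter on low values through this line alone, its test is taken from the fit with no such filter, where the log2 differences of 2.49, 2.41 and 2.94 had adjusted p = 4.365e-04, 8.100e-04 and 9.756e-05 (limma). Prdm1 was called at 96 h alone, at 1.05 and 0.846 FPKM against 0.135 to 0.387 (1.53 ± 0.46, adjusted p = 0.0192, limma). At 120 h it stood at 1.62 and 1.63 against 0.285 to 1.29 (adjusted p = 0.0572, limma). At 144 h it stood at 3.7 and 3.55 against 2.42 and 1.86 (adjusted p = 0.365, limma).

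Nanos3 was highest at 96 h, at 5.11 and 5.64 FPKM against 0.153 to 1.58 in the controls, a rise of 3.14 ± 0.66 (adjusted p = 0.0011, limma). It stood at 2.15 and 3.06 at 120 h, within reach of the control numbered 3 (2.58), and at 1.31 and 2.56 at 144 h against 0.555 and 1.31, and neither passed the test. Ddx4 was at 2.08 and 1.9 at 96 h, 1.21 and 1.71 at 120 h, and 4.11 and 3.3 at 144 h. None of these values passed the higher time course library of 72 h, where Ddx4 stood at 3.25 and 4.16. Its differences from the controls were 1.97 ± 0.46 (adjusted p = 0.00282), 1.28 ± 0.46 (adjusted p = 0.0571) and 4.67 ± 0.53 (adjusted p = 1.892e-08, limma). At 144 h the controls stood at 0.0908 and 0.0163, and the effect was larger than at 120 h by 3.39 ± 0.70 (adjusted p = 0.00168, limma). The time course libraries of 144 h stood higher than these controls, at 0.18 and 0.205. The Del(CBS1-5) libraries of 120 and 144 h belonged to different library sets, so stage and set cannot be told apart for this change. Dazl was at 1 and 1.43, 0.812 and 0.826, and 1.28 and 1.11, with at most 0.639 in the controls of 96 and 120 h and 0 listed in both controls of 144 h. In the time course libraries of 144 h it stood at 0.0429 and 0.118. In the fit with no filter on low values, used for it for the same reason, adjusted p was 2.260e-04, 0.00562 and 1.059e-05 (limma).

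Of the 5 genes that passed the filter through other conditions too, 5 rose in Del(CBS1-5) at 96 h, 2 at 120 h and 3 at 144 h, where 14.8%, 13.3% and 23.7% of all genes were called in either direction. At 96 h the call of Prdm1 was lost without wt 96 h replicate 2 or either mutant library and that of Ddx4 without mutant replicate 1. At 120 h that of Dppa3 was lost without wt 120 h replicate 2 or either mutant library and that of Dazl without either mutant library. Prdm1 at 96 h was also not called with a pseudocount of 1 FPKM, nor Dppa3 at 120 h with one of 0.01 FPKM, nor Ddx4 at 96 h and Dazl at 120 h in a fit of the compared groups alone.

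In Del(sub-TAD1) stembryos all 7 genes rose at 96 h, and none was called at 120 h. At 96 h Dppa3 stood at 2.43, 12.5 and 15.3 FPKM in the 3 libraries, Tfap2c at 1.42, 4.89 and 5.3, Nanos3 at 0.555, 3 and 3.49, and Prdm14 at 0.13, 1.04 and 1.53. Replicate 1 was thus within the range of the controls for these 4 genes and replicates 2 and 3 were above it. For Ddx4 (1.27, 1.64 and 1.87) and Dazl (0.246, 0.553 and 0.611) replicate 1 was again the lowest, and for Prdm1 all 3 libraries (0.864, 1.32 and 1.52) were above the controls. The rises went from 1.60 ± 0.44 for Dazl (adjusted p = 0.00421) to 3.46 ± 0.95 for Dppa3 (adjusted p = 0.00419, limma). Of all genes, 40.0% were called in this comparison, and the median of the 7 was 1.67 against 0.06 over all genes. Against the wt libraries of the same set alone, 3 of the 7 were called, namely Dppa3 (3.90, adjusted p = 0.00173), Ddx4 (1.78, adjusted p = 0.00226) and Dazl (1.60, adjusted p = 0.0175, limma). The call of Nanos3 was also lost without wt 96 h replicate 1 or 2 and without mutant replicate 2 or 3.

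At 120 h the 2 Del(sub-TAD1) libraries stood at 0.92 and 0.881 for Dppa3, 0.591 and 0.576 for Tfap2c, 0.0321 and 0.076 for Prdm14, and 0.534 and 0.561 for Ddx4. Prdm1 stood at 0.998 and 0.933, Nanos3 at 0.734 and 0.48, and Dazl at 0.375 and 0.204. All these values lay within or below the range of the controls, and none of the 7 genes was called (6.15% of all genes were). The difference between the stages itself was called for Tfap2c (-2.65 ± 0.55, adjusted p = 0.00243), Prdm14 (-2.18 ± 0.61, adjusted p = 0.00926) and Ddx4 (-1.62 ± 0.61, adjusted p = 0.0483, limma), in a comparison where 23.6% of all genes were. It did not pass for Dppa3 (-3.71 ± 1.44, adjusted p = 0.0576), Nanos3 (-2.16 ± 0.88, adjusted p = 0.0707), Prdm1 (-1.27 ± 0.61, adjusted p = 0.134) or Dazl (-0.75 ± 0.66, adjusted p = 0.469, limma). The 96 h and 120 h libraries of this line belonged to different library sets, so stage and set cannot be told apart. The Prdm14 call was lost without the 96 h replicate 3 or the 120 h replicate 1, and that of Ddx4 without wt 96 h replicate 1 or 2, wt 120 h replicate 3 or 4, mutant 96 h replicate 2 or 3, or either mutant library of 120 h.

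**Figure D3:**
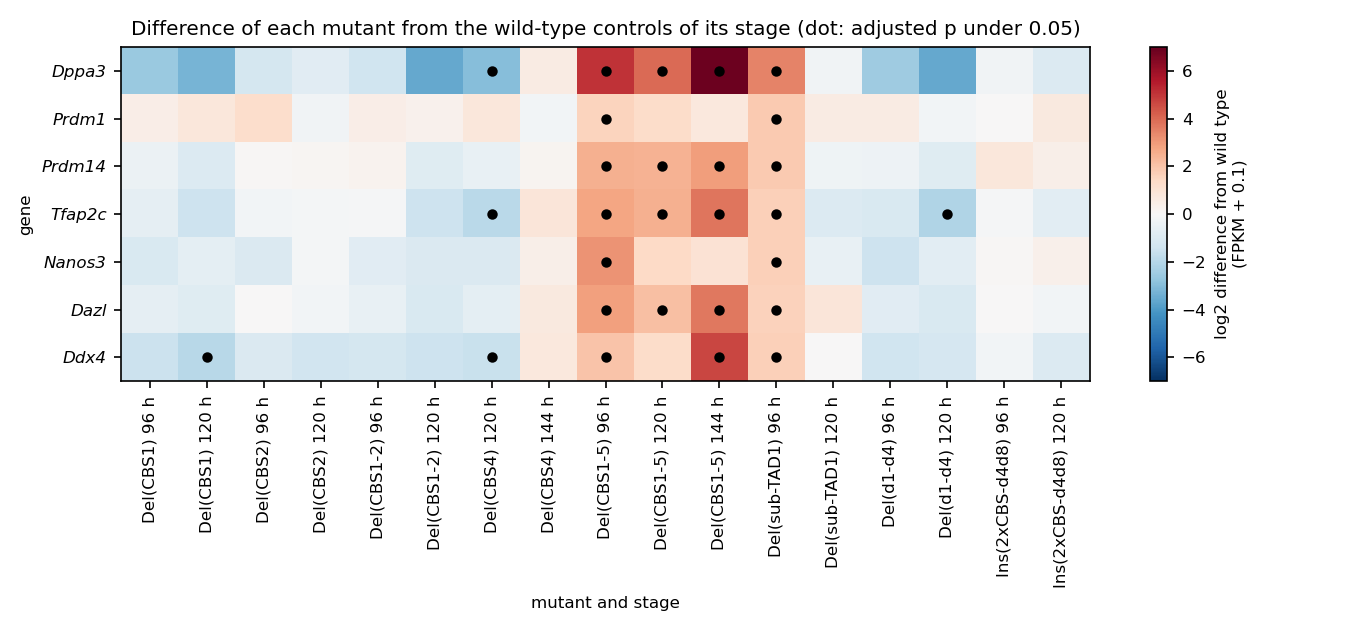
Log2 difference (colour, FPKM + 0.1) of 7 genes between each mutant condition and the wt controls of its stage, with a dot where the adjusted p (limma) was under 0.05. Prdm14 and Dazl entered the test through Del(CBS1-5) alone, so their dots in those columns are no support. Rises lay in the 3 Del(CBS1-5) columns and that of Del(sub-TAD1) at 96 h, and the 5 falls at 120 h.

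The 5 falls were called at 120 h in lines edited from the 129/SVEV cells. In Del(CBS4), Tfap2c stood at 0.202 and 0.331 FPKM and Ddx4 at 0.114 and 0.125, both below every control, with falls of 1.90 ± 0.42 (adjusted p = 7.998e-04) and 1.53 ± 0.46 (adjusted p = 0.00798, limma). Dppa3 stood at 0 and 0.124, which overlapped the lowest control, with a difference of -3.00 ± 1.08 (adjusted p = 0.0275, limma). Without wt 120 h replicate 3 or 4, or without either mutant library, the Dppa3 call was lost, and it was kept in 6 of 15 alternatives in all. That of Ddx4 was lost without either mutant library. Of all genes 37.5% were called in this comparison. In Del(CBS1), Ddx4 stood at 0.0686 and 0.0628 (-1.94 ± 0.46, adjusted p = 0.0144, limma; 2.10% of all genes called), and the call was lost without wt 120 h replicate 3 or either mutant library, with controls of the same library set (adjusted p = 0.172, limma), in the compared groups alone and with a pseudocount of 1 FPKM. In Del(d1-d4), Tfap2c stood at 0.168 and 0.264 (-2.11 ± 0.42, adjusted p = 0.00409, limma; 1.85%), and the call was lost without mutant replicate 1, in the compared groups alone and with a pseudocount of 1 FPKM. Dppa3 was listed at 0 in both libraries of Del(d1-d4) and of Del(CBS1-2) at 120 h, and at 0 and 0.0604 in those of Del(CBS1), next to wt controls that ranged from 0.0609 to 7.46. The log2 differences were -3.575 ± 1.079 in Del(d1-d4) and Del(CBS1-2) and -3.234 ± 1.079 in Del(CBS1). None of these passed the test (adjusted p = 0.0779, 0.0661 and 0.122, limma), although each was larger than the called difference in Del(CBS4). The adjustment is more lenient where more genes are called, as in Del(CBS4), so the call does not rank these lines.

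In Del(CBS4) Tfap2c and Ddx4 were not called at 144 h, where Tfap2c stood at 1.12 and 1.18 FPKM against 0.715 and 0.504 and none of the 7 genes was called (2.05% of all genes were). The wt time course libraries of 144 h stood at 2.54 and 2.44 for Tfap2c. The effect changed between 120 and 144 h by 2.73 ± 0.63 for Tfap2c (adjusted p = 0.00518) and by 2.25 ± 0.70 for Ddx4 (adjusted p = 0.0393, limma), where 8.27% of all genes were called. With wt libraries of the same set as controls, neither change was called, and that of Ddx4 was also lost without wt 120 h replicate 3 or without any 1 of the 144 h controls or the Del(CBS4) libraries. From 120 to 144 h the Del(CBS1-5) effect was called to differ for Ddx4 alone, as given above, where 7.07% of all genes were.

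No germ cell gene was called in the remaining mutant conditions. These were Del(CBS1) at 96 h (1.23% of all genes called), Del(CBS2) at 96 h (0.298%) and 120 h (0.193%), Del(CBS1-2) at 96 h (4.49%) and 120 h (2.35%), Del(d1-d4) at 96 h (1.19%), and Ins(2xCBS-d4d8) at 96 h (27.9%) and 120 h (26.9%). Nor did the change of an effect from 96 to 120 h pass for any of the 7 in Del(CBS1) (0.0526% of all genes called), Del(CBS1-2) (0.175%), Del(CBS2) (0.0117%), Del(CBS1-5) (0.257%), Del(d1-d4) (0.0234%) or Ins(2xCBS-d4d8) (0.392%). With 2 libraries against 4 and this spread among the controls, the 95% interval of the Dppa3 difference in Ins(2xCBS-d4d8) at 96 h ran from -2.45 to 1.93 on the log2 scale, so a change of several fold was not detectable there. These comparisons share the wt controls of their stage.

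Pluripotency and later germline genes were raised in Del(CBS1-5) and in Del(sub-TAD1) at 96 h as well. In Del(CBS1-5), the 12 pluripotency genes that germ cells keep gave 12 rises at 96 h, 10 at 120 h and 11 at 144 h, when 8.45%, 6.42% and 15.5% of all genes rose, with no falls and median log2 differences of 3.29, 2.7 and 5.64. Examples are Utf1 (22.9 against 2.62 FPKM at 96 h) and Dppa5a (556 against 4.74 at 144 h), both expressed in mES cells. Their summed FPKM was 673 to 986 in the 6 Del(CBS1-5) libraries, and in the wt controls of the 3 stages 58.9 to 377. Of 8 markers of naive pluripotent cells, 4 of them shared with that list, 6, 6 and 7 rose, led by Nr0b1 at 96 and 120 h and Fgf4 at 144 h, and Klf4 fell at 144 h. Naive markers were at none of the 3 stages listed at 0, and their summed FPKM was 70.1 to 74.7 at 96 h, 41.2 to 46.7 at 120 h and 56.2 to 56.6 at 144 h, against 16.2 to 45.9, 5.05 to 27.5 and 3.92 to 3.93 in the controls.

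Of the 14 later germline genes tested, none fell in Del(CBS1-5), and 8, 11 and 12 rose at 96, 120 and 144 h. It was not counted how many of the 14 passed the filter of 1 FPKM only through this line. These counts therefore carry no weight by themselves and cannot be set against the shares of all genes. Sycp3, a component of the meiotic synaptonemal complex, stood at 3.52 FPKM against 0.513 at 96 h, and Rhox5, a homeobox gene of the X chromosome, at 48.3 against 0.777 at 144 h. The summed FPKM of 19 such genes was 38.9 to 40.3, 49.9 to 53.1 and 120 to 140 at the 3 stages, against 8.95 to 30.6 in all wt controls. Of 9 tested surface and early markers, 3, 4 and 3 rose, with Ifitm3 (fragilis) at 76.6 against 23.4 FPKM at 96 h and 113 against 22.6 at 144 h. Cxcr4, the receptor that guides germ cell migration, fell at 120 h (10.03 against 20.42). Of 13 genes for induction and its context 3, 4 and 3 rose, Eomes at each stage and Otx2 at 120 h and at 144 h, where it stood at 9.02 against 0.112 FPKM. At 144 h, 3 of 13 is near the share of all genes that rose. Among 9 genes of DNA methylation and its erasure, the cofactor gene Dnmt3l rose at each stage, to 14.4, 22.2 and 49.7 FPKM from 1.49, 2.48 and 0.114. The 7 repressors of germline genes gave small differences, with 1 rise and 1 fall at 96 h (E2f6, 22.96 against 27.05 FPKM), none called at 120 h and 2 rises at 144 h.

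In Del(sub-TAD1) at 96 h, 10 of the 12 pluripotency genes, 5 of the 8 naive markers and 10 of the 14 later germline genes rose and none fell, where 21.8% of all genes rose and 18.1% fell. Most wt controls of 96 h belonged to the other library set, and these counts were not repeated with controls of the same set. Nor was it counted how many of the 14 passed the filter only through mutants in which they were high. Tcl1 stood at 3.06 against 0.456 FPKM, Esrrb at 8.37 against 1.65 and Sycp3 at 3.74 against 0.513. The pluripotency sum was 124, 436 and 513 in replicates 1 to 3, in the same order as Dppa3. Endoderm markers rose as well in 6 of 8 cases, led by Foxa2 (6.48 against 1.31 FPKM), while Cer1 fell, and their sum of 296 to 644 lay above that of the controls, 171 to 227. Of 13 genes for induction and its context 7 rose, led by Otx2 and Wnt3. The epithelial keratin genes Krt8 and Krt18 also rose, so that markers of other cell types that use some of the 7 genes moved with them, and their part was not tested.

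In Del(CBS4) at 120 h, where Dppa3, Tfap2c and Ddx4 fell, 6 of the 12 pluripotency genes fell and 1, Sox2, rose (94.0 against 23.7 FPKM), and of the 14 later germline genes 4 fell, where 22.2% of all genes fell, so that the latter count is near the background. Most wt controls of 120 h belonged to the other library set, and these counts were not repeated with controls of the same set. Dppa4 stood at 0.401 against 4.12 FPKM and Dppa5a at 9.47 against 83.3. Endoderm markers fell too, in 5 of 8 cases, led by Trh (3.05 against 55.9). Among the wt controls of 120 h these markers varied too, with an endoderm sum of 35.8 to 203.

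In Del(CBS1) at 120 h, where Ddx4 fell, 7 of the 12 pluripotency genes and 3 of the 14 later germline genes fell and none rose, against 0.807% of all genes. Dppa5a stood at 1.93 against 83.3 FPKM and Nanog at 0.0971 against 4.5. In the same libraries 5 of 8 endoderm and 3 of 4 tested endothelial markers rose, led by Sox17 (8.59 against 0.819) and Cdh5 (2.15 against 0.179). In Del(d1-d4) at 120 h, where Tfap2c fell, 6 of the 12 pluripotency and 3 of the 14 later germline genes fell and none rose, against 1.53% of all genes, with Pou5f1 at 1.17 against 20.5 FPKM, and no endoderm or endothelial marker was called. The part of these other genes in the falls was not tested.

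Of the marker lists of other cell types, trophoblast genes summed to 1.46 to 1.67 FPKM in Del(CBS1-5) at 96 h against 0.556 to 1.3 in the controls, to 2.39 to 3.37 against 0.226 to 2.65 at 120 h, and to 2.71 to 3.22 against 0.238 to 0.69 at 144 h. Their part in the Tfap2c values was not tested. Tpbpa was listed at 0 at every stage of the time course. In Del(CBS1-5), 1, 2 and 2 of 4 tested trophoblast genes rose at 96, 120 and 144 h, with Gcm1 at each stage. It was not counted how many of the 4 passed the filter only through this line. Of all genes, 8.45%, 6.42% and 15.5% rose and 6.38%, 6.88% and 8.18% fell in Del(CBS1-5) at these stages. Endothelial markers rose in Del(CBS1-5) at 120 h (4 of 4 tested, Kdr at 2.96 against 0.357 FPKM), at 96 h for Pecam1 alone and at 144 h for none. Of 2 tested surface ectoderm genes, 1 (Krt8) rose at 120 h and none at the other stages. Endoderm markers gave no rise and 1 fall at 96 h, 4 rises at 120 h, and 1 rise and 2 falls at 144 h, where Foxa1 stood at 2.2 against 9.79 FPKM.

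Dppa3, Tfap2c and Ddx4 were set against the pluripotency sum in the 61 libraries. At 72 h of the time course the pluripotency sum was the highest of all (1344 to 1352 FPKM), with Ddx4 at 3.25 and 4.16 but Dppa3 at 0.276 and 0.17. At 84 h the sum (648 to 693) was close to that of Del(CBS1-5) at 120 h (673 to 763), and Dppa3 stood at 0.216 and 0.248 against 17.5 and 20.2. Tfap2c (4.58 and 5.43 against 6.85 and 7.85) and Ddx4 (1.09 and 1.26 against 1.21 and 1.71) were nearer to each other there. The sum of the 8 naive markers, 4 of them among the 12 pluripotency genes, was 11.9 to 15.2 at 72 h and 37.9 to 39.0 at 84 h. In Del(CBS1-5) at 120 h it was 41.2 to 46.7. These are different stages and library sets, and the difference was not tested.

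**Figure D4:**
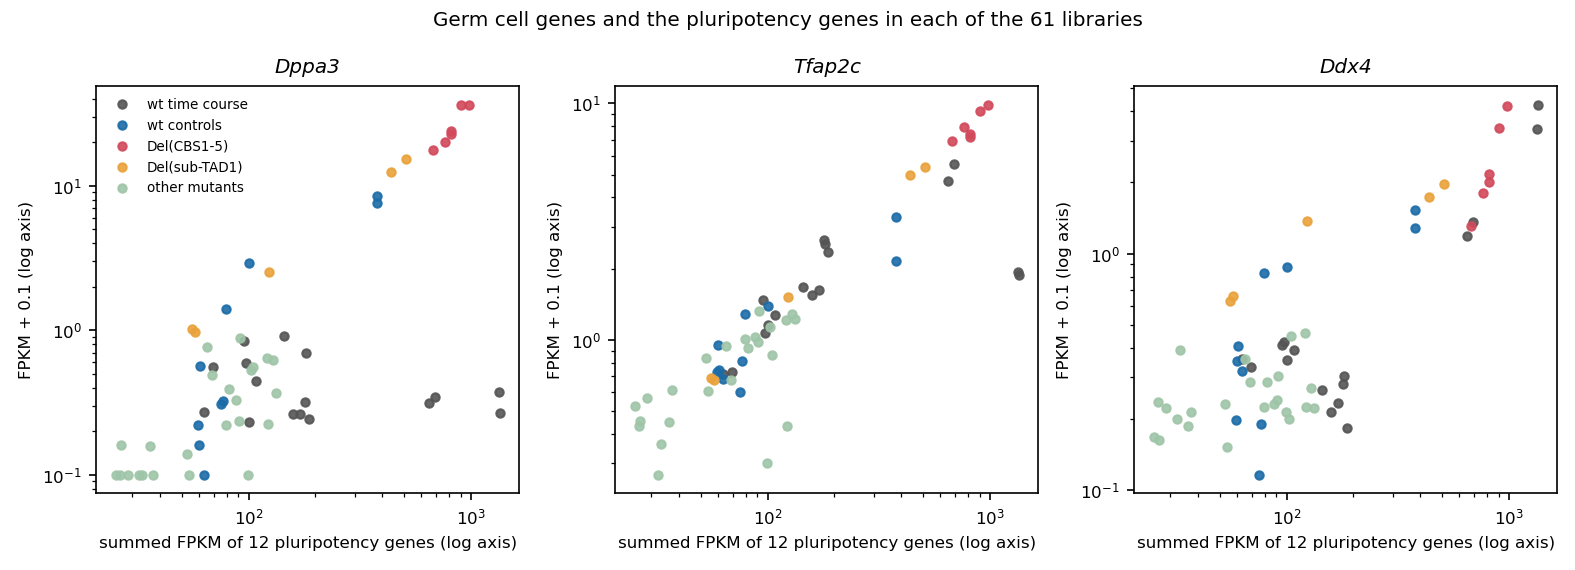
FPKM + 0.1 (log axis) of Dppa3, Tfap2c and Ddx4 against the summed FPKM of 12 pluripotency genes (log axis) in 61 libraries, coloured by group. Dppa3 was low in the 4 time course libraries of 72 and 84 h with high sums, and high in the 6 Del(CBS1-5) libraries.

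Over the 28 condition means of log2(FPKM + 0.1), given as a description since conditions share lines and library sets, Dppa3 ran most closely with Dazl (Pearson r = 0.926), Prdm14 with Tfap2c (0.924) and Dazl with Ddx4 (0.875). Prdm1 was the least like the others, with r from 0.0966 with Ddx4 to 0.529 with Nanos3. Within conditions, over the deviations of 61 libraries, the closest pairs were Dppa3 with Ddx4 (0.84) and Dppa3 with Tfap2c (0.799). Beyond the group, the 2 tested genes most like each member over the 28 conditions were Ooep (0.961) and Tcl1 (0.953) for Dppa3, Dppa2 (0.949) and Fbxo15 (0.949) for Tfap2c, Galnt6 (0.962) and Piwil2 (0.959) for Dazl, Oasl2 (0.921) and Liph (0.904) for Prdm14, Septin1 (0.891) and Cenpt (0.87) for Nanos3, and Sparc (0.905) and Plekhg5 (0.847) for Prdm1. For Ddx4 they were 9330185C12Rik (0.953) and 1700019D03Rik (0.943). Ooep is an oocyte gene, Dppa2 and Fbxo15 are genes of pluripotent cells, Piwil2 acts in the piRNA pathway of germ cells, and Sparc encodes a matrix glycoprotein.

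On mm10, the 7 genes lie on different chromosomes: Dppa3 at chr6:122626410-122630272 (plus strand), Prdm1 at chr10:44437177-44458748 (minus), Prdm14 at chr1:13113457-13127163 (minus), Tfap2c at chr2:172549593-172558622 (plus), Nanos3 at chr8:84173733-84176552 (minus), Dazl at chr17:50279395-50293636 (minus) and Ddx4 at chr13:112598333-112652475 (minus). Tfap2c shares chromosome 2 with the HoxD cluster.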

How the data were processed

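Strand-specific poly-A RNA-seq libraries (75-bp paired reads) of pooled stembryos were analysed from the deposited FPKM values. Per the labels and the study's methods, the authors trimmed reads with cutadapt 1.16, aligned them to mm10 with STAR 2.7.7a, kept uniquely mapped reads and computed FPKM with Cufflinks 2.2.1 on a custom annotation. No counts were used here, so no count model was fitted. The fragments behind a value were derived from its deposited confidence interval, and the depth of a library from whole-fragment steps among low values, 75.6% to 98.2% of which were whole within 0.02. These precisions cover counting error only.

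The 17098 genes whose mean reached 1 FPKM in any of the 28 conditions were tested with limma 3.58.1 (R 4.3.3) on log2(FPKM + 0.1), with 1 coefficient per condition and two-sided p-values. The contrasts were 7 time course intervals, wt at 120 against 96 h, 17 mutant conditions against wt of their stage, and 9 changes of a mutant effect between stages. The exact permutation test used SciPy 1.17.1. The study's methods call replicates biological, while the labels do not say whether they were separate cultures, so p-values measure the spread between these libraries. Replicate numbers paired the wt controls of 96 and 120 h, where the deviations of same-numbered libraries over the 1000 most variable genes correlated in 4 of 4 pairs (0.278 to 0.747).

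The 8 genes, the gene lists and the split into library sets were chosen with earlier results of these data known. All 8 genes are named, and of each list at most the 2 largest rises and 2 largest falls per comparison, besides the 2 genes most correlated with each member. Other pseudocounts, filters, scalings, limma settings, subsets of libraries and a replicate block were tried.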

Additional observations from a re-analysis of the deposited data

Results flagged for a closer look

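In 6 cases the effect of a mutation differed between 2 stages by a test of the difference itself (limma, adjusted p under 0.05). In Del(sub-TAD1), the log2 difference from wt changed from 96 to 120 h by -2.65 for Tfap2c, -2.18 for Prdm14 and -1.62 for Ddx4, and the libraries of these stages belong to different library sets. In Del(CBS4), it changed from 120 to 144 h by 2.73 for Tfap2c and by 2.25 for Ddx4, with wt controls of 120 h that ranged from 0.643 to 3.22 FPKM for Tfap2c. In Del(CBS1-5), it changed over the same interval by 3.39 for Ddx4, with wt controls at 0.0163 and 0.0908 FPKM at 144 h and at 0.253 to 1.19 FPKM at 120 h. Here too the mutant libraries of the 2 stages belong to different library sets. The wt time course libraries of 144 h stood at 0.18 and 0.205 for Ddx4. The part of the library sets and of single controls in these differences was not tested beyond the alternatives given with them. Among 14 groups of gene values from 4 wt controls, none held a library far from the others by Dixon's test at the 95% level on the log2(FPKM + 0.1) scale. On the FPKM scale 3 did, each through the control numbered 3, namely Dppa3 at 96 h (gap over range 0.843), Dazl at 96 h (0.865) and Dazl at 120 h (0.895). Chance gives about 1 such group in 20.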

How the results depend on the processing

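Of 608 values for 41 single calls under the alternatives, 511 kept direction and call, 97 kept direction but lost the call, and 0 reversed. The 41 calls include those of Prdm14 and Dazl in Del(CBS1-5), through which these genes entered the test, so their share of the kept calls is no support. Over the time course, the 3 rises became 1 with a pseudocount of 0.01 FPKM, and the 3 falls became 5 in a fit of the compared groups only and 6 with a replicate block. The 1 rise among wt controls became 0 with a pseudocount of 1 FPKM, with no filter, with upper-quartile scaling, in the compared groups only, within 1 library set, in the controls alone with a replicate block, and without both replicates 3. The 5 falls in mutants became 2 with a pseudocount of 1 FPKM, 10 with one of 0.01 FPKM, and 2 in the compared groups only. Of the changes between stages, the 3 rises became 0 with controls of the same library set, and the 3 falls became 5 with a pseudocount of 1 FPKM and 5 with upper-quartile scaling. In Del(CBS1-5) at 120 h the 4 rises, Prdm14 and Dazl included, became 7 with the replicate block and 7 without both replicates 3, and in Del(sub-TAD1) at 96 h the 7 rises became 3 with controls of the same library set. With 1 library left out, the counts ranged from 0 to 1 for wt rises and from 2 to 3 for stage rises. Mutant falls ranged from 3 (without wt 120 h replicate 3) to 12 (without wt 120 h replicate 2). Stage falls became 5 without wt 96 h replicate 3, and Del(CBS1-5) rises at 120 h became 7 without wt 120 h replicate 3. Mutant rises also varied with the library left out. Stage falls were fewer without Del(sub-TAD1) 120 h replicate 1, and Del(CBS1-5) rises at 120 h were fewer without its replicate 1. These last fits leave 1 library in a group, so their counts are not given. In the time course a whole replicate was left out, which leaves 1 library a stage, so no count is given there either. Mutants and controls share only a number, since 15 of 384 pairs correlated above 0.1, and in the time course 6 of 56 did. The block did not call the Del(CBS4) fall of Dppa3 at 120 h (adjusted p = 0.137, limma), nor did the fit without both replicates 3 (0.0512). The planned split by mitochondrial mRNA was not run, since its sums did not separate the libraries. The split by ribosomal-protein pseudogenes, the block within wt controls and the omission of both replicates 3 were chosen after seeing the data. Low depth limits Dazl most, with more than 3 fragments in 12 of 61 libraries.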
